A study of Mus musculus with 8 samples.

Results

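The 7 genes described here encode the CDK inhibitors of the mouse, the 3 Cip/Kip genes Cdkn1a (p21), Cdkn1b (p27) and Cdkn1c (p57) and the 4 Ink4 genes Cdkn2a (p16 and p19Arf), Cdkn2b (p15), Cdkn2c (p18) and Cdkn2d (p19). They were taken by name from the 24980 gene symbols of the count table, and all 7 were among the 17582 genes that passed the filter on low counts. RNA-seq was performed on 8 libraries of mouse skeletal myogenic cells in 4 groups of 2 biological replicates. TF cells were freshly isolated from teratomas that E14-EGFP embryonic stem cells, a single EGFP-labelled line, had formed in irradiated and cardiotoxin-injured tibialis anterior muscles of NSG-mdx4Cv mice, and were sorted as CD31- CD45- α7-integrin+ VCAM-1+. TE cells were the same kind of cells cultured to passage 8. SF were endogenous satellite cells, the resident stem cells of muscle, taken from adult animals and analysed fresh, and SE were satellite cells cultured to passage 8. The strain and sort of the satellite cell donors, and their age beyond adult, are not given in the sources used here, so that the origin of the cells cannot be told apart from the genetic background in comparisons of T with S groups. TE and SE shared the expansion medium and the passage.

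CDK inhibitors bind cyclin-dependent kinases and hold cells back from entering or finishing the division cycle. The Cip/Kip proteins bind complexes of CDK2 and of other CDKs with their cyclins, and they are known in muscle for the exit of myoblasts from the cycle, whereas the Ink4 proteins bind CDK4 and CDK6 and keep them from the D-type cyclins. Cdkn2a carries a second product, Arf, which is read in another frame and stabilises p53. Cdkn1c is an imprinted gene expressed from the maternal allele.

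The sequences upstream of the Ink4/Arf starts and of Cdkn1b are shown because Cdkn2a and Cdkn2b were the members with the largest differences between fresh and expanded cells and Cdkn1b was the member that fell. They come from RefSeq on GRCm38.p6 and run 5′ to 3′ on the strand of the gene, ending at the base before the start in RefSeq or, where that lies further upstream, in GENCODE. Cdkn2b lies at chr4:89311040-89311282, Cdkn2a from the Arf start at chr4:89294654-89294869 and Cdkn2a from the Ink4a start at chr4:89282193-89282442, all on the minus strand, and Cdkn1b lies at chr6:134920151-134920400 on the plus strand. The Ink4a stretch is inside the first intron of the Arf transcript. Capitals mark matches, on both strands, to the GC box GGGCGG, to the E-box of the kind that MyoD binds, CAGCTG, to the E2F-like motif TTTNNCGC and to the CCAAT box, and no matches of different motifs overlapped in these stretches.
Cdkn2b: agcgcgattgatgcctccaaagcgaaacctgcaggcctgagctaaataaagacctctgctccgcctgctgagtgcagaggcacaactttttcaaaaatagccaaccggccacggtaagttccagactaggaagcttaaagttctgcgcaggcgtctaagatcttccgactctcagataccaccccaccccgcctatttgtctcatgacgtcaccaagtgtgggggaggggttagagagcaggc
Cdkn2a, Arf start: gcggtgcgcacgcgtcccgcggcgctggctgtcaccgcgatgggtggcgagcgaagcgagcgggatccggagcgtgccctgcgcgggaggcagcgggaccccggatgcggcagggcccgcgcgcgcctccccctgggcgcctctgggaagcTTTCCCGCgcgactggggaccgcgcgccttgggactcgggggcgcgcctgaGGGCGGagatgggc
Cdkn2a, Ink4a start: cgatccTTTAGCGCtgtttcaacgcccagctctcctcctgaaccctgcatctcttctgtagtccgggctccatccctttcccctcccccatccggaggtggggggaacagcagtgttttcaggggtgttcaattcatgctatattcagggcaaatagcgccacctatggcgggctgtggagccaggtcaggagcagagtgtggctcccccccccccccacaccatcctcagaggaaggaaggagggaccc
Cdkn1b: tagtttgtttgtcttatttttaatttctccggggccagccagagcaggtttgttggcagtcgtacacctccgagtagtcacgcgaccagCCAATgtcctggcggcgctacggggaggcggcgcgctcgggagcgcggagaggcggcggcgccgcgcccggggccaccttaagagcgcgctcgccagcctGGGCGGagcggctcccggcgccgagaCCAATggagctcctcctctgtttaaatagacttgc
The Cdkn2b stretch held none of the 4 motifs. Both Cdkn2a stretches held 1 E2F-like match, which 4.28% of the 32851 promoters of the same table held in their 250 upstream bases. The GC box was in 32.7% of them, the CCAAT box in 33.8% and the E-box in 13%, and the E-box was in none of the 9 promoters listed for 6 of the 7 genes. Cdkn1b held 1 GC box and 2 CCAAT boxes in its 250 bases. The Arf promoter was rich in CpG, with 40 in 250 bases against a median of 6, while the Ink4a promoter had 7, Cdkn2b 12 and Cdkn1b 28. The table lists Cdkn1a, Cdkn2c and Cdkn2d as well, and Cdkn1c was not matched.

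**Figure D1:**
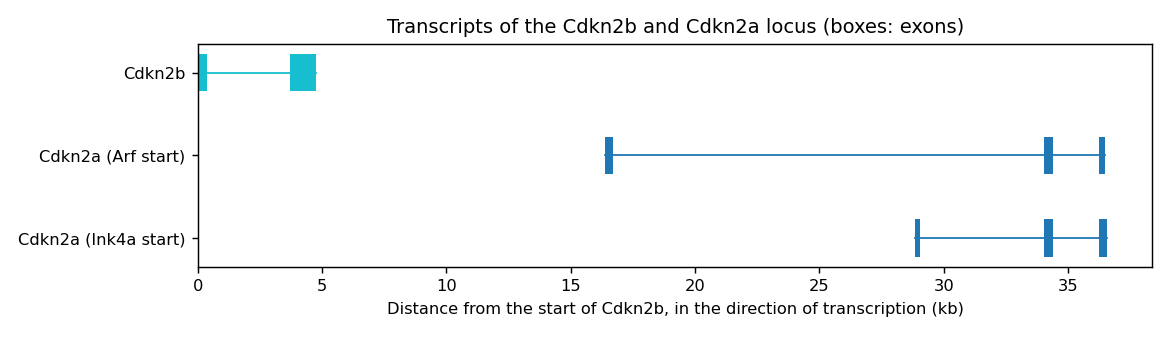
Annotated transcripts of Cdkn2b and Cdkn2a, drawn by their distance in kb from the start of Cdkn2b in the direction of transcription, with exons as boxes and introns as lines. The Arf transcript starts 16386 bases and the Ink4a transcript 28847 bases past the start of Cdkn2b, and the last 2 exons of Cdkn2a are shared by both of its transcripts.

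The libraries held between 11930961 and 21146632 estimated counts, of which the ribosomal transcript Rn45s took between 7.986% and 21.25%. Levels below are counts divided by median-ratio size factors (normalized counts). The summed level of the 7 myogenic markers was between 20112 and 25061 in TF, 33490 and 34021 in TE, 34655 and 43372 in SF and 41683 and 50065 in SE. The defining marker Pax7 was at 3067 and 4914 in TF and 4046 and 4581 in SF, against 1503 and 1241 in TE and 1743 and 1174 in SE. Myf5 and Vcam1 were also lower in every expanded library than in every fresh one. Myod1, Cdh15 and Des were higher in each expanded library than in the fresh ones of its origin, as Itga7 was in TE. Markers of other cells differed between the groups. The 5 fibro-adipogenic markers summed to between 232031 and 234616 in TF, 29598 and 52653 in SF, 3151 and 7686 in SE and 143 and 351 in TE. Col1a1 was the larger part of each sum, with 209379 and 213163 in TF, 17607 and 32545 in SF and 3052 and 7582 in SE. Dcn overlapped between TF (13515 and 12229) and SF (9758 and 16120) and was at 0 and 14.6 in SE and 57.7 and 18.5 in TE. Pdgfra was at 4158 and 4320 in TF, 1438 and 2115 in SF, 40.1 and 21.5 in SE and 8.99 and 3.08 in TE. The 5 endothelial markers summed to between 1034 and 3524 in TF and 4692 and 5825 in SF but to no more than 33.6 in the expanded groups. The 4 pericyte and smooth muscle markers were between 4594 and 5961 in TF and 11393 and 12914 in SF against at most 1537 in expanded cells, and the 3 Schwann markers between 896 and 1060 in SF against at most 151 elsewhere. The 7 haematopoietic markers were at 3394 in TF replicate 1 and 408 in TF replicate 2, and between 49.3 and 372 elsewhere. The 4 pluripotency markers summed to at most 173, with the defining marker Pou5f1 at 0 in 6 libraries. Both fresh groups thus held reads of marker genes of other cell types, whose part in the values below was not tested, and in bulk samples fewer cells of a type and less RNA per cell cannot be told apart.

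Per length, the leading CDK inhibitor gene was Cdkn1c in the teratoma-derived groups and Cdkn1a in the satellite cells. Here the normalized count of each gene was divided by the median length of its annotated transcripts and expressed as a share of the 7 genes. Cdkn1c made up 73.4% and 79.5% of this signal in the TF libraries (76.5% ± 4.29, SD, n = 2) and 76.4% and 74.9% in TE (75.7% ± 1.08, SD, n = 2), against 22.5% and 26.9% in SF and 10% and 28.2% in SE. Cdkn1a made up 63.4% and 59.6% in SF (61.5% ± 2.68, SD, n = 2) and 50.8% and 53.1% in SE (51.9% ± 1.66, SD, n = 2), against 14.3% and 10.4% in TF and 17.7% and 18% in TE. The shares of the T and S libraries thus did not overlap for either gene. A share also depends on the level of the other members, and the Cdkn1a level itself did not separate T from S. In normalized counts per kb, Cdkn1a was at 5335 and 5149 in TE, between the SE values of 3325 and 6281. It was at 1683 and 1174 in TF and 2425 and 2835 in SF.

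Cdkn1a was the next gene in all 4 T libraries, and Cdkn1c was the next in both SF libraries. In SE the replicates differed, with Cdkn2a next in replicate 1 and Cdkn1c in replicate 2. The 4 Ink4 genes together held 37.6% and 17.1% of the signal in SE but between 3.92% and 6.15% in the 6 other libraries. The summed level of the 7 genes, in normalized counts per kb, was 3824 and 4755 in SF, 11748 and 11253 in TF, 6552 and 11828 in SE and 30181 and 28662 in TE. The 2 TE libraries stood highest and the 2 SF libraries lowest. The leader of each library was the same with the longest transcript, merged exons, coding transcripts or no length correction (8 of 8 libraries each), although the share of Cdkn1c in TF went down to 58.9% and that of Cdkn1a in SE to 37.2%. The annotated transcripts of Cdkn1c had a median length of 667 bases, the longest 1901 and merged exons 2039, and those of Cdkn1a a median length of 1172 bases, the longest 2080 and merged exons 3553. With 2 libraries per group, the shares are given without a test.

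**Figure D2:**
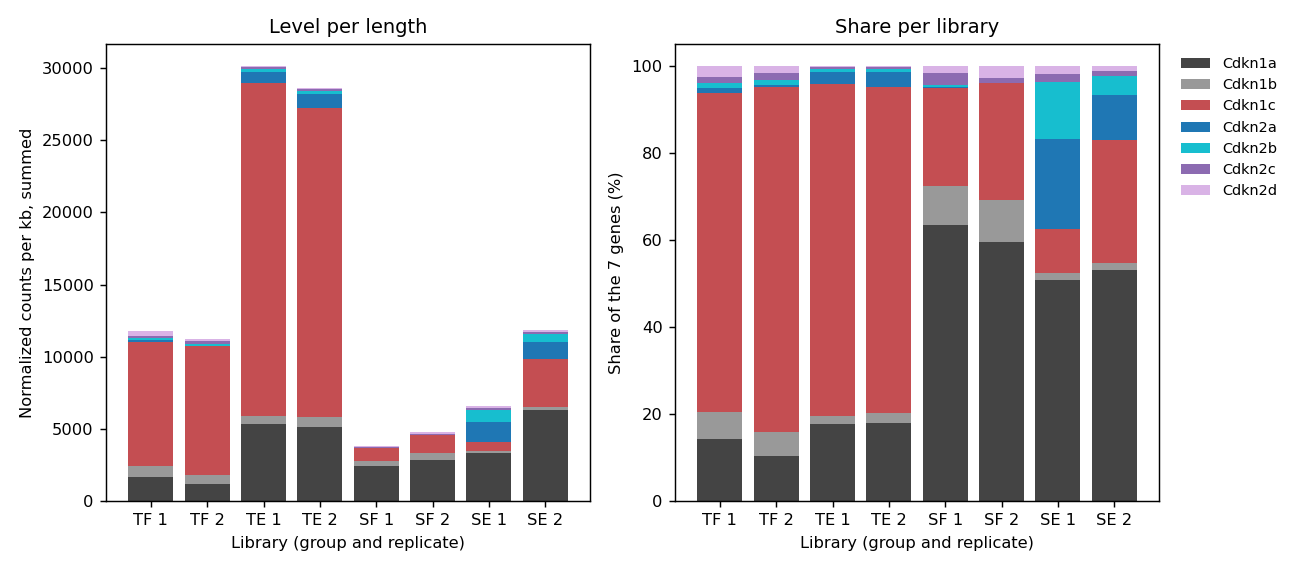
CDK inhibitor levels in each library, in normalized counts per kb of median transcript length (left) and as a percentage of the 7 genes (right), with 1 stacked bar per library. Cdkn1c fills between 73.4% and 79.5% of the TF and TE bars, Cdkn1a between 50.8% and 63.4% of the SF and SE bars, and the blue Ink4 segments are largest in SE.

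Cdkn1c (p57), on chromosome 7, was high in cells from teratomas in both states. Its normalized count was 5753 and 5966 in TF, 15385 and 14319 in TE, 575 and 854 in SF and 439 and 2223 in SE. All 4 T libraries were above all 4 S libraries, and the SE libraries spanned both SF values. The order of group means was TE, TF, SE and SF, of which TF and SE differed and neither TE and TF (log2 difference 1.40, adjusted p = 0.0964) nor SE and SF (1.09, adjusted p = 0.147) passed edgeR's quasi-likelihood test.

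Cdkn1c was higher in TE than in SE by 3.50 ± 0.61 on the log2 scale (standard error of the fit, adjusted p = 0.00844, edgeR) and higher in TF than in SF by 3.19 ± 0.60 (adjusted p = 0.00523). The SE replicates were 5.06-fold apart, and the difference of TE from SE was 2.76 without SE replicate 1 and 5.11 without SE replicate 2, past the threshold in both. That of TF from SE was 2.10 (adjusted p = 0.0262, edgeR), with 1.34 and 3.71 without the same libraries. Without either SE library the difference of TE from TF passed (adjusted p = 0.000133 and 0.000173), and without SE replicate 2 the difference of SE from SF turned to -0.51 (adjusted p = 0.168), whereas without SE replicate 1 it was 1.85 (adjusted p = 4.85e-05). The difference between the effects of expansion was 0.31 ± 0.79 (adjusted p = 0.879), and 1.91 without SE replicate 2 (adjusted p = 0.00167). The difference of TF from SE had an adjusted p of 0.0767 when only those groups were fitted. Sums of fibro-adipogenic markers were highest in TF and lowest in TE, and Cdkn1c was highest in TE. The part of such cells in the Cdkn1c values of any group, TF included, was not tested.

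Cdkn1a (p21), the p53 target of the family, on chromosome 17, was higher in expanded cells of both origins. It was read at 1972 and 1376 normalized counts in TF, 6253 and 6035 in TE, 2842 and 3323 in SF and 3897 and 7361 in SE. Each expanded library was above both fresh libraries of its own origin, and the SE values lay on either side of those of TE. It rose by 1.93 ± 0.31 on the log2 scale from TF to TE (3.81-fold, adjusted p = 0.0016, edgeR) and by 1.06 ± 0.30 from SF to SE (2.09-fold, adjusted p = 0.0192).

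The difference between those effects of expansion was 0.87 ± 0.42 for Cdkn1a (adjusted p = 0.209, edgeR), and it passed without SE replicate 2 (1.40, adjusted p = 0.00881). In the order TE, SE, SF and TF, only SE and SF of the neighbours differed, TE and SE being 0.15 apart (adjusted p = 0.882) and SF and TF 0.72 apart (adjusted p = 0.111), the last passing without SE replicate 1 or SE replicate 2 (adjusted p = 0.0185 and 0.0181) and with DESeq2 (0.0153). The call of Cdkn1a in SE versus SF was lost without SF replicate 1 (0.93, adjusted p = 0.0973) and without SE replicate 2 (0.53, adjusted p = 0.112), and that in TE versus SF without SF replicate 1 (1.08, adjusted p = 0.0555).

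Cdkn1b (p27), which in many cells keeps quiescence and is removed through SKP2, was the member that fell with expansion, in satellite cells. It was read at 1718 and 1431 normalized counts in TF, 1313 and 1514 in TE, 828 and 1084 in SF and 249 and 469 in SE. Both SE libraries were below the 6 others, and TF and TE overlapped. Cdkn1b fell by 1.22 on the log2 scale (standard error 0.30) from SF to SE (2.34-fold, adjusted p = 0.00999, edgeR) and differed by -0.10 ± 0.30 between TE and TF (adjusted p = 0.832). The test of the difference between these effects gave 1.12 ± 0.42 (adjusted p = 0.11), so that a particular response of satellite cells was not shown. Without SE replicate 2 that difference was 1.65 (adjusted p = 0.00434), and DESeq2 gave 1.26 (adjusted p = 0.0385).

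Cdkn1b was higher in TE than in SE by 2.00 ± 0.31 (adjusted p = 0.00471, edgeR) and higher in TF than in SE by 2.10 ± 0.31 (adjusted p = 0.00107). In the order TF, TE, SF and SE, TE and SF were 0.78 apart (adjusted p = 0.0564), which passed without SF replicate 2 (adjusted p = 0.042), SE replicate 1 (0.00666) or SE replicate 2 (0.00755). TF exceeded SF by 0.88 ± 0.30 (adjusted p = 0.0597), passing without SE replicate 1 or SE replicate 2 (adjusted p = 0.00708 and 0.00687). The gene lies on chromosome 6, whose 633 genes with at least 50 normalized counts had a median difference of 0.53 in TE versus SE and 0.58 in TF versus SE, the highest of 20 chromosomes in each. Chromosome 6 also had the highest median in TF versus SF (0.76) and TE versus SF (0.60), and ranked 19 in TE versus TF (-0.07). The medians of all 12561 such genes were 0.00 and -0.04 in the comparisons with SE. Among the 16 tested genes that start within 500 kb of Cdkn1b, 3 were higher and 0 lower in TE versus SE, beside 3.15% and 4.07% of all tested genes. In TF versus SE 8 were higher and 0 lower, beside 14.5% and 9.16%. In SE versus SF 3 were higher and 7 lower, beside 20.9% and 19.8%. The part of the chromosome in the values of Cdkn1b was not tested.

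**Figure D3:**
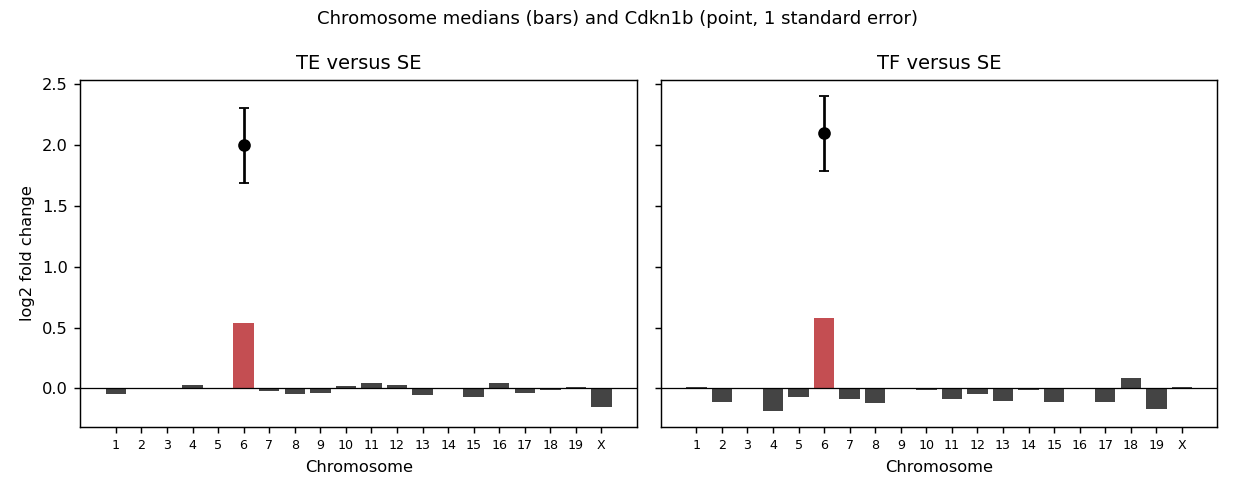
Median log2 fold change of the genes of each chromosome (bars, chromosome 6 in red) and of Cdkn1b itself (point, with 1 standard error) in TE versus SE and TF versus SE. Chromosome 6 stands at 0.53 and 0.58, and Cdkn1b at 2.00 and 2.10.

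Cdkn2a, whose transcripts encode p16 and Arf, had the widest range of all members. It was read at 106 and 46.8 normalized counts in TF, 714 and 845 in TE, 10.2 and 1.14 in SF and 1187 and 1075 in SE. The 4 groups did not overlap, both expanded groups were above both fresh groups, and the SF values rest on 8 and 1 estimated counts, the second of which is under the limit of 3 counts (3.42 normalized counts in that library, counting error only). On the per-length scale, the SF mean lay above 6.48% of the 17317 tested genes with a length and the SE mean above 90.5%.

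Cdkn2a rose from TF to TE by 3.40 ± 0.47 on the log2 scale (10.6-fold, adjusted p = 0.000719, edgeR) and from SF to SE by 7.85 ± 0.64 (231-fold, adjusted p = 2e-05). The value for TF to TE was 4.13 without TF replicate 1. The SF libraries held few reads of this gene, and the fitted value for SF to SE moved between 7.01 and 9.97 when single libraries were left out, the largest being without SF replicate 1. TF was higher than SF by 3.94 ± 0.64 (adjusted p = 0.00243), with an adjusted p of 0.1 when only those groups were fitted and a value of 6.03 without SF replicate 1. TE and SE were 0.51 apart (adjusted p = 0.57). Expansion changed Cdkn2a less in teratoma-derived cells, with a difference between the effects of -4.45 ± 0.77 (adjusted p = 0.00529) that lay between -6.54 without SF replicate 1 and -3.60 without SF replicate 2. The p16 and Arf transcripts share 548 words of 31 bases and have 274 and 317 of their own, and the gene-level counts do not tell them apart.

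Cdkn2b (p15), an Ink4 inhibitor known as a target of TGF-β signalling, lies upstream of Cdkn2a on chromosome 4. It was read at 203 and 153 normalized counts in TF, 241 and 327 in TE, 24.2 and 5.7 in SF and 1191 and 696 in SE. No groups overlapped, and the SF libraries, at 19 and 5 estimated counts, were again lowest. Cdkn2b rose from SF to SE by 6.19 ± 0.59 on the log2 scale (73-fold, adjusted p = 4.68e-05, edgeR), while TE and TF were 0.73 ± 0.46 apart (adjusted p = 0.259). The rise from SF to SE was 7.50 without SF replicate 1 and 5.51 without SF replicate 2, and it passed in both.

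The test of the difference between these effects of expansion gave -5.46 ± 0.72 for Cdkn2b (adjusted p = 0.0015, edgeR), with -6.745 without SF replicate 1 and -4.78 without SF replicate 2. TF exceeded SF by 3.75 ± 0.56 (adjusted p = 0.00163), with 5.05 and 3.07 without those libraries. SE exceeded TE by 1.71 ± 0.46 without passing (adjusted p = 0.0543), and this difference was past the threshold with DESeq2 (adjusted p = 0.0073), with no filter on low counts (6.18e-05), with only those groups fitted (0.0324) and without TF replicate 1 (0.034), TF replicate 2 (0.0369), SF replicate 1 (0.0184), SF replicate 2 (0.00968) or SE replicate 2 (0.0145). Over the 8 libraries, log2 levels of Cdkn2a and Cdkn2b had a Pearson r of 0.954, the highest of the 21 pairs of members, as a description of libraries that share group and depth. Of the 6 tested genes that start within 500 kb of Cdkn2b, 3 were higher and 0 lower in SE versus SF, and of the 10 near Cdkn2a 3 and 0. The shares of all tested genes were 20.9% and 19.8%, and each member was counted among the neighbours of the other.

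**Figure D4:**
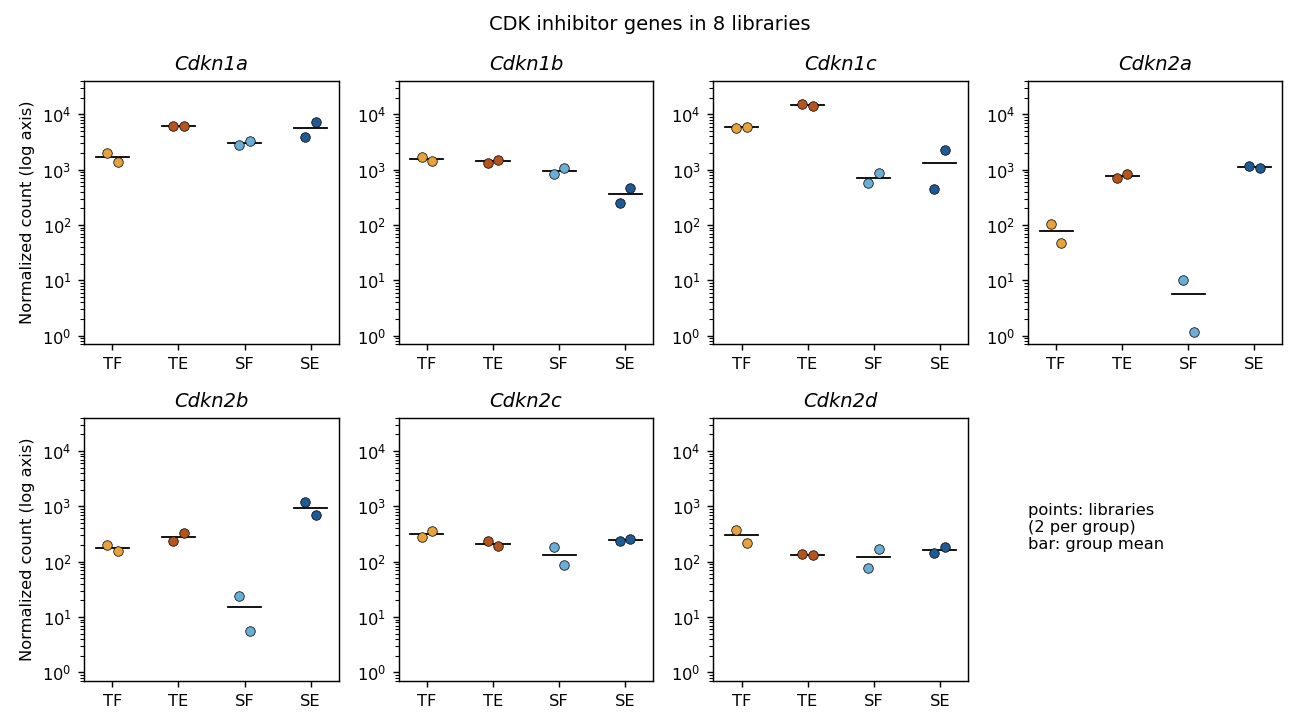
Normalized counts of the 7 genes in each library on a log axis, with a horizontal bar at the mean of the 2 libraries of a group. Cdkn2a and Cdkn2b are lowest in SF and rise by more than 10 times to SE, Cdkn1c is highest in TE and TF, and Cdkn2c and Cdkn2d vary least.

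Cdkn2c (p18), also on chromosome 4, was read at 277 and 354 normalized counts in TF, 233 and 190 in TE, 181 and 86.7 in SF and 238 and 253 in SE. The SF libraries were below the 6 others. TF was higher than SF by 1.41 ± 0.41 (adjusted p = 0.0327, edgeR), a call lost with median-ratio size factors (1.24, adjusted p = 0.0578), with only those groups fitted (1.31, adjusted p = 0.0949), and without TF replicate 1 (1.59, adjusted p = 0.0507), TF replicate 2 (1.22, adjusted p = 0.141) or SF replicate 2 (1.002, adjusted p = 0.128). SE and SF were 1.08 ± 0.40 apart (adjusted p = 0.0573), and without SF replicate 1 this passed (1.67, adjusted p = 0.0168). TE and TF were -0.52 ± 0.40 apart (adjusted p = 0.356). The difference between the effects of expansion was -1.60 ± 0.57 (adjusted p = 0.0928) and passed without SF replicate 1 (-2.17, adjusted p = 0.0295).

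Cdkn2d (p19, the Ink4d protein), on chromosome 9, was read at 379 and 221 normalized counts in TF, 139 and 130 in TE, 77.7 and 168 in SF and 146 and 184 in SE. TF was above the other groups, which overlapped around the SF values. No difference of Cdkn2d passed the test in the fit of all libraries, the largest being 1.44 ± 0.48 between TF and SF (adjusted p = 0.0566, edgeR), -1.71 ± 0.67 for the difference between the effects of expansion (adjusted p = 0.126) and -1.10 ± 0.48 between TE and TF (adjusted p = 0.117). The first passed without SF replicate 2 (2.15, adjusted p = 0.0234), without either SE library (adjusted p = 0.0409 and 0.0446) and with no filter on low counts (adjusted p = 0.0218), the second passed without SF replicate 2 (-2.42, adjusted p = 0.0401), and the last passed with only those groups fitted (-1.12, adjusted p = 0.0391).

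Counted by calls, expansion raised 2 of the 7 genes in teratoma-derived cells, Cdkn1a and Cdkn2a, and lowered 0. In TE versus TF 9.86% of all tested genes were higher and 16.2% lower. Cdkn1c was not called there, nor with DESeq2, median-ratio size factors, a replicate block or a test against the fold threshold. It passed with only TE and TF fitted (1.38, adjusted p = 4.94e-05, edgeR) and with no filter on low counts (1.40, adjusted p = 1.48e-07, edgeR). In satellite cells expansion raised 3, Cdkn1a, Cdkn2a and Cdkn2b, and lowered 1, Cdkn1b, beside 20.9% and 19.8% of all genes. In the difference between the effects 0 genes were higher and 2 lower, Cdkn2a and Cdkn2b, beside 4.7% and 9.62%. Behind the counts of 0, at an unadjusted p under 0.05, stood 1 gene lower in TE versus TF and 1 higher in the difference between the effects, of which DESeq2 called 0 and 1. Under median-ratio scaling the median of all genes in SE versus SF went from -0.23 to -0.43, in TE versus SF from -0.34 to -0.55, in TF versus SF from 0.08 to -0.08 and in the difference between the effects from -0.18 to -0.04, and the genes called higher and lower in SE versus SF from 3677 and 3476 to 3065 and 3955. With that scaling 3 members were called in TF versus SF instead of 4.

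**Figure D5:**
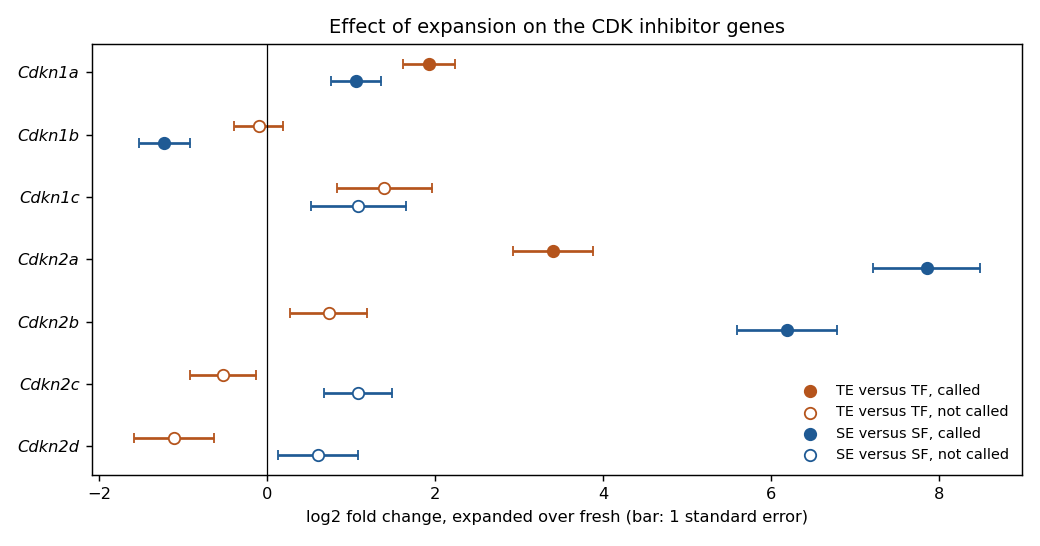
Log2 fold change of each gene from fresh to expanded cells, with 1 standard error, in teratoma-derived cells (TE versus TF) and satellite cells (SE versus SF), filled where the test was passed. Cdkn2a stands at 3.40 and 7.85, Cdkn2b at 0.73 and 6.19, and Cdkn1b at -0.10 and -1.22.

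Between origins, 4 genes were higher and 0 lower in TF than in SF (Cdkn1c, Cdkn2a, Cdkn2b and Cdkn2c), where 15.1% of all tested genes were higher and 9.13% lower. In TE versus SE, 2 genes were higher and 0 lower (Cdkn1b and Cdkn1c), beside 3.15% and 4.07%. TF versus SE had 2 higher (Cdkn1b and Cdkn1c) and 3 lower (Cdkn1a, Cdkn2a and Cdkn2b), beside 14.5% and 9.16%. TE versus SF had 4 higher (Cdkn1a, Cdkn1c, Cdkn2a and Cdkn2b) and 0 lower, beside 23% and 23.6%. The counts of 0 lower were 1, 1 and 0 at an unadjusted p under 0.05 in TF versus SF, TE versus SE and TE versus SF, and DESeq2 called 1, 1 and 0 lower. These comparisons share libraries and are not independent of each other.

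Genes of CDKs, cyclins, the retinoblastoma family and E2F factors also differed between fresh and expanded cells. For comparison, 20.9% of all tested genes were higher and 19.8% lower in SE versus SF, and 9.86% and 16.2% in TE versus TF. Of 12 CDK and cyclin genes, all 12 were higher and 0 lower in SE versus SF, with a median log2 fold change of 3.42 against -0.23 over all tested genes, and the called genes with the largest changes were Ccnb1 and Ccna2, cyclins of the later cycle (4.82 ± 0.57 and 4.55 ± 0.37), and Cdk1, the mitotic kinase (4.56 ± 0.45). In TE versus TF 3 of the 12 were higher and 0 lower, Cdk6, Ccnd1 and Ccnd3. Cdk4, a partner of the Ink4 proteins, was read at 336 and 437 normalized counts in SF and 2147 and 1598 in SE, with TF and TE between 1276 and 1476. Of 11 genes of the retinoblastoma family and E2F factors, 8 were higher and 1 lower in SE versus SF, led by E2f8, E2f2 and Rbl1 (3.73 ± 0.40, 3.11 ± 0.29 and 2.67 ± 0.35), and 3 were higher and 1 lower in TE versus TF.

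Of 12 proliferation genes, 10 were higher and 0 lower in SE versus SF, beside 20.9% and 19.8% of all tested genes. The largest rises were those of Mki67, Top2a and Bub1 (5.17 ± 0.42, 5.08 ± 0.40 and 4.63 ± 0.55). In TE versus TF 0 of the 12 were called by edgeR or DESeq2 and 0 had an unadjusted p under 0.05 (median 0.03). There 9.86% of all tested genes were higher and 16.2% lower. Mki67, the Ki-67 antigen of cycling cells, was at 5788 and 6327 normalized counts in TF, 6929 and 5727 in TE, 229 and 236 in SF and 10503 and 4177 in SE. Of 10 genes of muscle differentiation, 9 were higher in SE versus SF and 8 in TE versus TF, with 0 lower in each. The leading ones in satellite cells were Myh3, Myh8 and Myog (12.19 ± 0.99, 10.06 ± 1.19 and 9.69 ± 0.69), from SF levels as low as 2.28, 0 and 8.92. Myog, the factor of terminal differentiation, was at 3993 in SE replicate 1 and 13510 in SE replicate 2, so that the SE library with more Cdkn1c and Cdkn1a had more Myog and less Mki67 than the other. The part of this in the spread of Cdkn1c was not tested.

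Of 8 genes of p27 turnover and FOXO factors, 4 were higher and 1 lower in SE versus SF. Of all tested genes, 20.9% were higher and 19.8% lower in that comparison, and 9.86% and 16.2% in TE versus TF. The largest rises in the list were those of Cks1b and Skp2, which mark the p27 protein for degradation (2.83 ± 0.54 and 2.38 ± 0.38), and Uhmk1, a p27 kinase (1.01 ± 0.19). Cks1b and Skp2 were also higher in TF versus SF (1.61 ± 0.52 and 2.06 ± 0.38) and TE versus SF (2.43 ± 0.53 and 2.04 ± 0.38), where Cdkn1b was not called. A link to the Cdkn1b transcript was not tested. The lower gene in SE versus SF was Foxo3, with a fold change of -0.54 ± 0.19, and its paralog Foxo4 was higher (0.68 ± 0.24). In TE versus TF 1 of the 8 was higher, Uhmk1. Of 10 repressors of the Ink4a/Arf locus, 3 were higher and 1 lower in SE versus SF by the test, near the shares of all genes (20.9% and 19.8%). The called repressors were Cbx2 (3.06 ± 0.99), Bmi1 (1.09 ± 0.23), Suz12 (0.68 ± 0.20) and, lower, Cbx7 (-1.75 ± 0.58), all Polycomb proteins. In TE versus TF 2 were higher and 1 lower, the lower one being Tbx2, a T-box repressor (-2.48 ± 0.45). Of the 4 activators, 3 were lower in SE versus SF and 0 higher, namely Kdm6b, an H3K27 demethylase (-3.66 ± 0.30), and the ETS factors Ets1 and Ets2 (-1.75 ± 0.20 and -1.74 ± 0.27). In TE versus TF 3 were lower and 1 higher, Dmtf1. Kdm6b went from 31421 and 39874 normalized counts in SF to 1835 and 3120 in SE, against 8575 and 7903 in TF and 4126 and 4264 in TE.

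Of 18 genes of p53 and its targets other than Cdkn1a, 8 were higher and 2 lower in SE versus SF, beside 20.9% and 19.8% of all tested genes. In TE versus TF 9 were higher and 2 lower, beside 9.86% and 16.2%. In SE versus SF the leading ones were Ccng1 (4.29 ± 0.21) and, lower, Btg2 (-4.52 ± 0.21), both p53 targets, and Perp, whose SE levels were 3.58 and 0 against 116 and 103 in SF. Of the 8 genes of the imprinted domain of Cdkn1c, 5 were tested. In TE versus SE, where Cdkn1c differed, 0 of the 5 were called by edgeR or DESeq2 and 0 had an unadjusted p under 0.05. As only 3.15% of all tested genes were higher and 4.07% lower there, a count of 0 among 5 genes does not set the domain apart. In SE versus SF Kcnq1ot1, the noncoding RNA that silences the paternal copy of the domain, was lower (-3.74 ± 0.68) and Nap1l4 and Cd81 were higher (1.51 ± 0.18 and 0.76 ± 0.18). Kcnq1ot1 was at 154523 normalized counts in SF replicate 1 and 26250 in SF replicate 2.

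By Pearson r of log2(normalized count + 1) over the 8 libraries, among 12681 genes, the genes most like Cdkn2a were Galk1, 2310022A10Rik and the embryonic myosin Myh3 (r = 0.993, 0.992 and 0.992), and those most like Cdkn2b were Mrpl28, the mitotic activator Cdc20 and the histone gene Hist1h2bn (0.996, 0.992 and 0.991). Cdkn1b was most like Brpf1 and Fbln2, which lie on chromosome 6 as it does, and Sept8 (0.983, 0.980 and 0.977). Cdkn1c was most like Ddit4, Pknox2 and Pef1 (0.991, 0.983 and 0.971) and Cdkn1a like Top3b, Synpo2 and Kctd9 (0.985, 0.984 and 0.982). Cdkn2c was most like Ap1ar, Hhat and Ankmy2 (0.963, 0.954 and 0.953) and Cdkn2d like Yipf3 and Pip4k2a (0.976 and 0.952). With 8 points in 4 groups these values describe the libraries and carry no test.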

How the data were processed

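Samples were grouped by their labels. Per the labels, total RNA was made into libraries with a stranded SMARTer kit, and the submitters' processing notes name CASAVA and kallisto 0.44.0 with GRCm38 (mm10). The authors deposited 1 table of estimated counts per gene symbol, not normalized, which were rounded here to whole numbers. Genes passing edgeR's filterByExpr (17582 of 24980) were scaled by TMM and tested in 1 fit over the 8 libraries with edgeR's quasi-likelihood test (edgeR 4.0.16, R 4.3.3, DESeq2 1.42.0 as an alternative). Calls needed a Benjamini-Hochberg adjusted p below 0.05 over all tested genes and a fold change above 1.25, and fitted values carry their standard error after ±. With 2 libraries per group the common dispersion was 0.233, and p-values measure only the spread between these libraries. The limit of 3 counts corresponds to between 2.15 and 3.89 normalized counts. Gene lengths and positions come from GENCODE M21, of which 24488 symbols matched. Members share no word of 31 bases with each other. Of the 3547 words of Cdkn1a, 115 also occur in other genes (2281 of them), and of the 4579 of Cdkn1b, 2 occur in 1 other gene. The other members share none with other genes, and the part of shared words in the counts was not tested. The genes, lists, lengths and neighbourhood rules were chosen with earlier results of these data known, genes named from a list being the called ones with the 3 largest changes and a mean of at least 50 normalized counts, and Cdk4, Foxo3, Foxo4, Suz12 and those named in TE versus TF having been added after their values were seen. The script for the test was tested on simulated data. Of the genes most like each member, 1 is not reported here.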

Additional observations from a re-analysis of the deposited data

Results flagged for a closer look

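The effect of expansion differed between teratoma-derived and satellite cells, by the interaction test of edgeR, for 2 of the 7 genes. For Cdkn2a the effect in teratoma-derived cells minus that in satellite cells was -4.45 ± 0.77 on the log2 scale (adjusted p = 0.00529), and both effects were increases, as every expanded library was above every fresh one of its origin. For Cdkn2b it was -5.46 ± 0.72 (adjusted p = 0.0015), the increase from SF to SE being called and the difference between TE and TF not. Both values rest on SF libraries with 8 and 1 and with 19 and 5 estimated counts. When single libraries were left out the values lay between -6.54 and -3.60 for Cdkn2a and between -6.74 and -4.78 for Cdkn2b, with adjusted p no higher than 0.00844 and 0.00207.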

How the results depend on the processing

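Cdkn2a and Cdkn2b were called, in the same direction, in SE versus SF under every alternative and left-out library run. The same held for the difference between the effects of expansion, except that fitting only the groups compared does not give it. The labels do not say whether same-numbered libraries were paired. Their deviations correlated between -0.0264 and 0.0754, which cannot exclude pairing. With a replicate block as if paired, members called numbered 2 in TE versus TF, 4 in SE versus SF and 5 in TF versus SF. They numbered 2 in TE versus SE, 5 in TF versus SE, 5 in TE versus SF and 2 in the difference between the effects. Cdkn1b was the added one in TF versus SF (0.91, adjusted p = 0.0398, edgeR) and TE versus SF (0.79, adjusted p = 0.0404). Called members numbered 4 in TE versus TF with only those groups fitted and 7 in TF versus SF with no filter on low counts. Of all genes, 2259 were called in TE versus SE with no filter and 2119 with DESeq2, against 1268. Leaving out single libraries, called members ranged from 2 to 3 in TE versus TF, 3 to 7 in TF versus SF and 2 to 5 in the difference between the effects, and all genes from 2739 to 5438 in TE versus TF, 2637 to 5071 in TF versus SF, 653 to 1698 in TE versus SE and 1467 to 2996 in the difference. Directions turned, without a call, when single libraries were left out for Cdkn1b in TE versus TF (range -0.19 to 0.06, with 0.03 without TE replicate 1), Cdkn1c in SE versus SF (-0.51 without SE replicate 2, up to 1.85) and in the difference (-0.42 without SE replicate 1 and -0.05 without SF replicate 2, up to 1.91), Cdkn1a in TE versus SE (-0.24 without SE replicate 1, up to 0.69) and Cdkn2d in TE versus SF (-0.12 without SF replicate 1, up to 1.05). The leading share was, with the longest transcript, merged exons and no length correction, 64.6%, 68.7% and 58.9% in TF and 63.3%, 70.3% and 62.3% in TE (Cdkn1c), 66.7% and 55.4% in SF for the first pair, and 46.9%, 37.2% and 56.5% in SE (Cdkn1a). With coding transcripts only, chosen after seeing the data, it was 66% in TF and 66.3% in TE. The cause of these shifts was not tested beyond the settings themselves.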
